A study of Mus musculus with 2 samples.

Results

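The T cell receptor loci of mouse B cells were examined for DNA break ends, as 3 windows of the mm10 genome. These were Tra/Trd on chromosome 14 (chr14:52400001-54230000, the alpha and delta chains), Trb on chromosome 6 (chr6:40890001-41560000, the beta chain) and Trg on chromosome 13 (chr13:19170001-19360000, the gamma chain). Of the 272259 bins of 10 kb on chromosomes 1 to 19, X and Y, 183 lie in Tra/Trd, 67 in Trb and 19 in Trg. The windows were chosen by position, because B cells leave these loci unrearranged, and the rule uses coordinates and no measured value.

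Break ends were mapped by END-seq, a method that joins an adapter to broken DNA in agarose plugs. Each read starts at the end of a break, and its strand tells on which side of the break the sequenced DNA lies. The S-phase library, called S here, was made from splenic B cells negative for CD43, taken from mice of 4 to 8 weeks and activated in culture with anti-CD40 (1 µg/mL) and IL-4 (25 ng/mL) over 24 to 28 h. The G1 library, called G1 here, was made from the same kind of cells left quiescent without either agent. Cell cycle phase, activation and the agents differ together between S and G1, so their effects cannot be told apart. The sample titles share a prefix, ATR+c, that is not explained, and no strain, genotype or number of pooled animals is given. CD43 is carried by T cells and myeloid cells and is absent from most resting B cells. The labelled cell type could not be checked by expression, since DNA break ends give none.

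Antigen receptor genes are assembled from separate V, D and J segments, which the RAG recombinase cuts at flanking recombination signals made of a heptamer and a nonamer. Developing B cells cut the immunoglobulin loci and developing T cells the receptor loci described here, so a mature B cell keeps its T cell receptor loci in the germline order. Mature splenic B cells have switched RAG off, and breaks in S phase can then arise from replication.

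S held 20543572 reads on chromosomes 1 to 19 and G1 26889564, at 2.90 and 3.99 reads per covered strand position. The loci took 17899 reads of S (0.0871%) and 22902 reads of G1 (0.0852%). Ratios of reads are S over G1 after scaling each library to its read total on chromosomes 1 to 19, and RPM is reads per 1000000 of that total. Ratios of positions were scaled instead to the covered strand positions on chromosomes 1 to 19, which numbered 7087979 in S and 6738117 in G1. Brackets hold a 95% interval for the ratio of the read numbers, taken as Poisson. For a locus divided by its flanks it is a normal approximation on the log scale, and elsewhere it is exact. It covers counting error only and is too narrow where reads are stacked on 1 position. Each group was 1 library, so nothing was tested or checked by a replicate, and the values describe these libraries rather than S-phase and G1 cells at large.

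Promoter DNA nearest to the J segments is shown first, and none of it holds a J segment. The sequences are RefSeq promoters (GRCm38.p6, the assembly of mm10), 250 bases before the start of the gene whose promoter lies nearest to the first J gene of each locus, written 5′ to 3′ on the strand of the gene. Capitals mark a match to TATAAA, the motif of the TATA box, searched at any place and on both strands. Such a match is held by 12.4% of all 32851 promoters of this length, and whether it serves as a TATA box was not tested. The recombination signal heptamer CACAGTG, held by 5.52% of them, was not among the letters of the 3 windows on either strand. The windows lie 2546 to 16410 bp from those J genes, so the absence says nothing about the signals beside the genes.
Gm30275 promoter, chr14:54125734-54125983, minus strand, 2546 bp from Trdj1: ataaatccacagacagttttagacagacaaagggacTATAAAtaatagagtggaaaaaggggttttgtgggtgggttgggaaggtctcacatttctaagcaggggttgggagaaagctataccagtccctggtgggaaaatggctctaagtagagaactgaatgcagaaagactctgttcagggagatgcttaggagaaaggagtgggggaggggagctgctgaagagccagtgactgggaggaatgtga
Prss2 promoter, chr6:41521526-41521775, plus strand, 12089 bp from Trbj1-1: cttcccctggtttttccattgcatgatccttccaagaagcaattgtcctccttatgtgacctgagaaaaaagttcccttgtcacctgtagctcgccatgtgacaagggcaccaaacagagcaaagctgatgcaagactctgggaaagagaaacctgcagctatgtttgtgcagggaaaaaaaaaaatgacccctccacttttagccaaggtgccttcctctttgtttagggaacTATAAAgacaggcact
Gm31887 promoter, chr13:19193684-19193933, minus strand, 16410 bp from Trgj1: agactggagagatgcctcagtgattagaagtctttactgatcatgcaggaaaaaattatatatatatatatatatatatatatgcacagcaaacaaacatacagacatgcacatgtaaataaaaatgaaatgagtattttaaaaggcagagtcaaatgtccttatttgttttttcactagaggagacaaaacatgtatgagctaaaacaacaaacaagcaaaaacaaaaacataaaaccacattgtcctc

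The Gm30275 sequence held 0 reads in S and 10 reads at 2 positions in G1. Neither the promoter of Prss2, a trypsinogen gene, nor that of Gm31887 held a read in S or in G1. Over all 18 promoter windows inside the loci (here of 300 bases, reaching 50 bases into the gene), 6 held reads in S and 8 in G1, with 19 reads in all in S and 67 in G1. That was 1.30 covered positions per kb in S and 2.22 in G1. Over all 32851 promoter windows the figures were 12.6 positions per kb in S and 8.23 in G1, and 66.4% of windows held a read in S and 60.0% in G1. Promoters inside the T cell receptor loci thus carried fewer break-end positions than promoters as a whole in both libraries, a comparison of 18 windows of which some may overlap.

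At the scale of the whole locus, break ends were almost level between the libraries. Tra/Trd held 10461 reads in S and 13405 in G1, a ratio of 1.02 (0.996 to 1.05). Trb held 5772 reads in S and 7556 in G1, a ratio of 1.000 (0.966 to 1.03). Trg, the shortest locus, held 1666 reads in S and 1941 in G1, a ratio of 1.12 (1.05 to 1.20), the only one of the 3 whose interval lay off 1. Non-overlapping tiles of the length of Trg spread from a ratio of 0.824 at the 5th percentile to 1.24 at the 95th over 12603 tiles, so the value of Trg lay inside the common range. The same range was 0.860 to 1.17 for tiles as long as Tra/Trd and 0.851 to 1.19 for tiles as long as Trb.

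Many reads sat on shared positions, so each covered strand position was also counted once. These ratios were scaled to the covered positions of each library, not to its reads. Tra/Trd then held 4770 positions in S and 4793 in G1, a ratio of 0.946 (0.909 to 0.985). Trb held 2215 positions in S and 2161 in G1 (0.974, 0.918 to 1.03), and Trg 637 in S and 594 in G1 (1.02, 0.910 to 1.14). Under this scaling the excess of Trg reads was not seen in positions, and Tra/Trd moved from just above 1 to just below it. Position ratios of tiles as long as Tra/Trd ran from 0.860 to 1.19 between the same percentiles. Without its fullest bin the read ratio of Trg was 1.16, and without its 3 fullest strand positions 1.14.

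Strands were near balance. The plus strand held 49.5% of the Tra/Trd reads in S and 50.3% in G1, and 48.9% of the Trg reads in S and 48.4% in G1. In Trb it held 49.8% in S (48.5 to 51.1, exact Clopper-Pearson 95% interval) and 45.6% in G1 (44.5 to 46.7). The Trb ratio was accordingly 1.09 (1.04 to 1.15) on the plus strand and 0.923 (0.880 to 0.968) on the minus strand, on opposite sides of the level total. The departure lay in the G1 library, where minus-strand reads numbered 4110 against 3446 plus-strand reads.

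**Figure D1:**
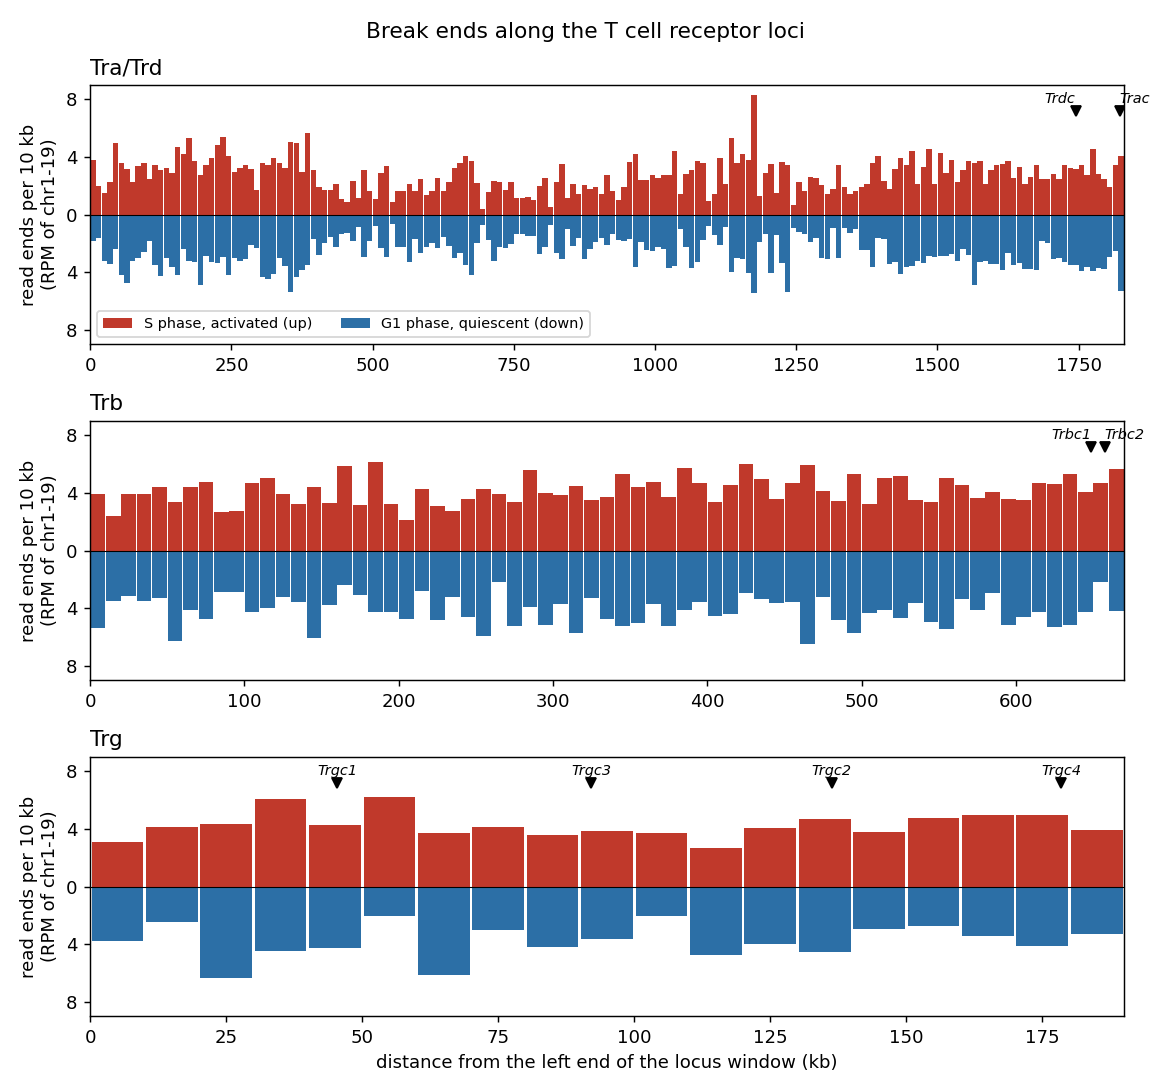
Break ends per 10 kb bin in RPM of chromosomes 1 to 19 (S upward, G1 downward) against the distance in kb from the left end of each locus window, with arrowheads at the constant genes. Both libraries run at a similar height along Trb and Trg, and both are low through the middle of Tra/Trd, where the repeated V genes lie.

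The flanks of Tra/Trd had unlike sides. The 500 kb flanks on each side of Tra/Trd held 8252 reads in S and 9310 in G1, a ratio of 1.16 (1.13 to 1.20). The left side stood at 1.09 (1.04 to 1.13) and the right side, beyond Trac, at 1.24 (1.19 to 1.29). With 1000 kb the left side was at 1.01 (0.980 to 1.04) and the right at 1.203 (1.17 to 1.24), so the excess lay mainly on the right. The locus ratio divided by that of its flanks was 0.880 (0.847 to 0.916) in reads and 0.815 (0.761 to 0.872) in positions. Dad1, the survival gene to the right of Trac and outside the window, held 238 reads in S and 216 in G1 with 2 kb on both sides, a ratio of 1.44 (1.20 to 1.74). Trb over its flanks was 1.03 (0.986 to 1.08). Trg over its flanks was 1.12 (1.04 to 1.20) in reads and 1.02 (0.906 to 1.16) in positions. Read density in Tra/Trd was 69.3% of that in its flanks in S and 78.7% in G1, while position density was 92.8% in S and 114% in G1.

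Among the immunoglobulin loci, which B cells do rearrange, Igh was level in reads (19168 in S and 25356 in G1, ratio 0.989, 0.971 to 1.01). Igk stood lower, with 28346 reads in S and 44146 in G1 (0.840, 0.828 to 0.853), and Igl at 1.09 (1.03 to 1.15). The intervals of Igk and of each T cell receptor locus did not overlap, which covers counting error alone. Tiles as long as Tra/Trd spread more widely than these intervals, from 0.860 to 1.17 between the 5th and 95th percentiles. The Igk ratio of 0.840 lay below that range, and Igk is longer than these tiles. Tiles as long as Igk were not counted.

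**Figure D2:**
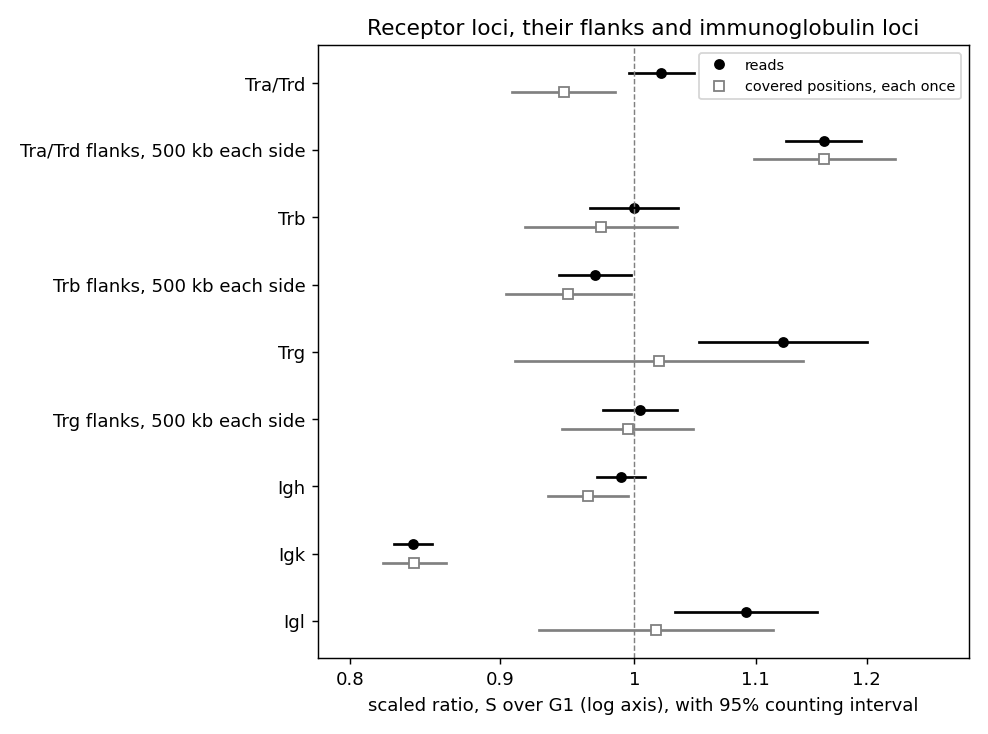
Scaled ratio of S over G1 on a log axis for the receptor loci, their 500 kb flanks and the immunoglobulin loci, from reads (filled circles) and from covered positions counted once (open squares), with 95% counting intervals. The 3 receptor loci lie near 1, the Tra/Trd flanks at 1.16 and Igk at 0.840.

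Rearrangement leaves a trace in copy number, since the DNA between joined segments is lost from the allele. In Igh, the interval from the J genes to Ighd1-1 held 1.76 covered positions per kb in S and 1.64 in G1. That was 0.558 times (0.442 to 0.697) the density of the Igh constant genes in S and 0.666 times (0.522 to 0.843) in G1. Against the first 500 kb of Igh V genes it was 0.807 times (0.645 to 0.999) in S and 0.762 times (0.605 to 0.950) in G1. In Tra/Trd, the interval from Trdd1 to Trdj2, which joining of alpha segments removes in T cells, held 3.12 positions per kb in S and 3.85 in G1. That was 1.20 times (0.940 to 1.51) the rest of the locus in S and 1.48 times (1.19 to 1.82) in G1. The alpha J interval, from Traj61 to Traj1, was at 0.794 times (0.663 to 0.943) the rest of the locus in S and 0.839 times (0.704 to 0.992) in G1. The Trb D, J and C genes stood at 0.907 times (0.659 to 1.22) the rest of Trb in S and 0.636 times (0.431 to 0.906) in G1. By position, the delta interval was thus as dense as its locus or denser, and the alpha J interval less dense in both libraries. In reads the alpha J interval went the other way, at 1.08 times (0.974 to 1.19) the rest in S and 1.26 times (1.16 to 1.37) in G1. The delta interval was at 1.09 times (0.923 to 1.29) in S and 1.21 times (1.05 to 1.38) in G1. The Trb genes were at 1.12 times (0.942 to 1.32) in S and 0.604 times (0.493 to 0.734) in G1. Copy number itself was not measured, and whether break-end density follows it here was not tested.

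**Figure D3:**
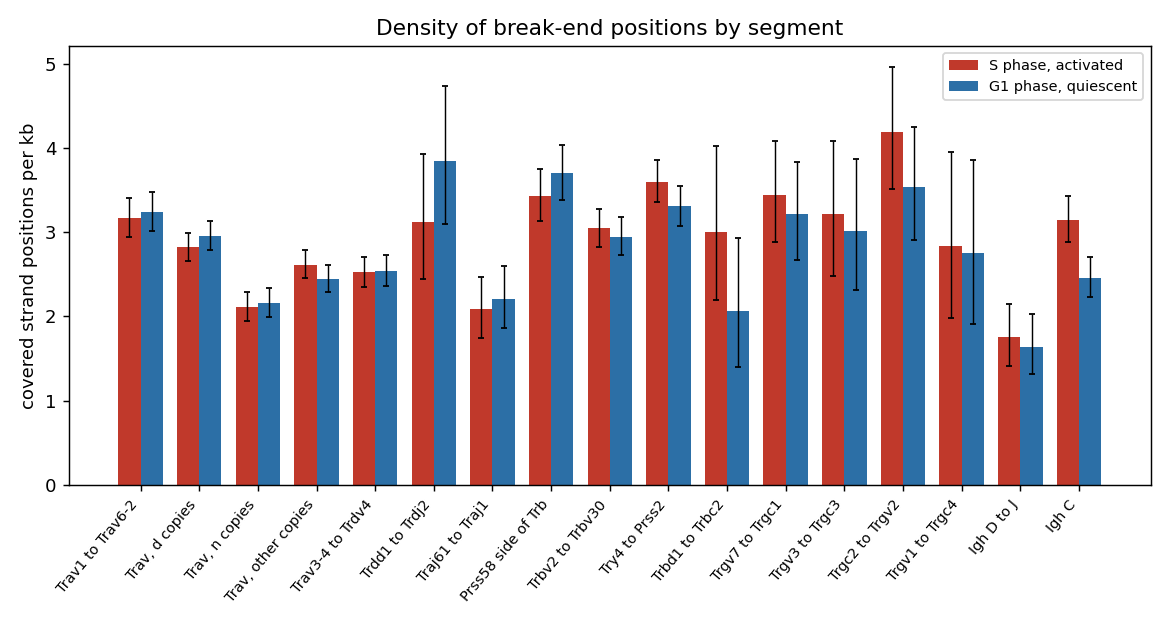
Covered strand positions per kb with exact 95% counting intervals, S left of G1, in spans of V, D, J and constant genes of the 3 loci and in 2 spans of Igh. The n copies of the Trav genes (2.12 in S and 2.17 in G1) lie below the d copies in both libraries, and the Igh D to J span is lower than every receptor span.

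The V genes of Tra/Trd lie in blocks that were copied during mouse evolution, and the names carry a d or an n for the copy. The block with d held 2101 reads in S and 2782 in G1, a ratio of 0.988 (0.934 to 1.05). The block with n held 1112 reads in S and 1513 in G1, a ratio of 0.962 (0.890 to 1.04). The block with neither letter held 2134 reads in S and 2449 in G1, a ratio of 1.14 (1.08 to 1.21), which was 1.02 (0.927 to 1.112) in positions. All 3 blocks were thin in reads per position, at 1.85 to 2.17 in S and 2.36 to 2.66 in G1. The V genes from Trav3-4 to Trdv4, outside the copies, had 2.59 in S and 3.43 in G1. Position density in the n block was 0.749 times (0.677 to 0.828) that of the d block in S and 0.732 times (0.663 to 0.807) in G1. How reads that match several copies were placed is not given in the sources used here, so values inside the blocks are uncertain.

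Downstream of the V genes, the stretch from Trdd1 to Trac held 696 reads in S and 1050 in G1, a ratio of 0.868 (0.787 to 0.956) in reads and 0.866 (0.730 to 1.03) in positions. Within it, the alpha J genes from Traj61 to Traj1 held 393 reads in S and 584 in G1 (0.881, 0.773 to 1.003). In Trb, Trbv2 to Trbv30 held 1968 reads in S and 2648 in G1, a ratio of 0.973 (0.917 to 1.03). The trypsin genes between the V and D segments held 2031 reads in S and 2559 in G1, at 1.04 (0.980 to 1.102). The D, J and C genes of Trb, from Trbd1 to Trbc2, were the receptor span with the highest ratio. They held 144 reads in S and 103 in G1, a ratio of 1.83 (1.41 to 2.38), on 45 positions in S and 31 in G1, a position ratio of 1.38 (0.854 to 2.26). Of the 4 sets of Trg, Trgv7 to Trgc1 stood at 1.06 (0.926 to 1.22), Trgv3 to Trgc3 at 1.18 (0.953 to 1.46) and Trgv1 to Trgc4 at 1.01 (0.780 to 1.29). The set from Trgc2 to Trgv2 held 303 reads in S and 280 in G1, at 1.42 (1.20 to 1.67) in reads and 1.13 (0.871 to 1.46) in positions.

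The constant genes encode the membrane-bound part of each receptor chain and were counted with 2 kb on both sides. Read intervals lay above 1 at 2 of the 8 and below 1 at 2, where over 49591 genes with the same flanks 28.2% lay above and 13.3% below. That set includes longer genes with more reads and so narrower intervals, and the shares were not matched for read number. Counted by position, the intervals of all 8 genes held 1. No constant gene held more than 8 reads at a position in S or 11 in G1.

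Trac, the constant gene of the alpha chain (gene body chr14:54220521-54224198), held 39 reads in S (1.90 RPM) and 94 in G1 (3.50 RPM), a ratio of 0.543 (0.364 to 0.797). Both libraries covered 18 positions there, a position ratio of 0.951 (0.467 to 1.94), and 69 of the G1 reads lay on the minus strand. Trdc, that of the delta chain (chr14:54142851-54146108), held 58 reads in S (2.82 RPM) and 55 in G1 (2.05 RPM), a ratio of 1.38 (0.938 to 2.03). In the gene body alone Trdc held 21 reads in S and 27 in G1, a ratio of 1.02 (0.547 to 1.87). With 5 kb on both sides Trdc was at 1.06. Trac stayed lower, at 0.374 (0.191 to 0.688) in the gene body and 0.737 with 5 kb. With 2 kb the pair lay on either side of 1, although the Trdc interval held 1, and Trdc had fewer G1 reads per position.

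Of the beta chain genes, Trbc1 (chr6:41538219-41539665) held 64 reads in S (3.12 RPM) and 29 in G1 (1.08 RPM), a ratio of 2.89 (1.84 to 4.65), the highest of the 8. In the gene body alone it held 21 reads in S and 15 in G1, a ratio of 1.83 (0.900 to 3.82). With the flanks it had 23 positions in S and 11 in G1, a position ratio of 1.99 (0.931 to 4.52). Trbc2 (chr6:41546730-41548181) held 44 reads in S (2.14 RPM) and 35 in G1 (1.30 RPM), a ratio of 1.65 (1.03 to 2.64), on 11 positions in S and 10 in G1. Its strands pulled apart, with 32 plus reads in S and 8 in G1, against 12 minus reads in S and 27 in G1. In the gene body alone Trbc2 held 7 reads in S and 19 in G1, a ratio of 0.482 (0.171 to 1.20), so its direction depended on the flank.

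The gamma chain has 4 constant genes. Trgc1 (chr13:19214103-19216618) held 64 reads in S (3.12 RPM) and 69 in G1 (2.57 RPM), a ratio of 1.21 (0.850 to 1.73). Trgc2 (chr13:19305060-19307551) held 47 reads in S (2.29 RPM) and 98 in G1 (3.64 RPM), a ratio of 0.628 (0.434 to 0.898), on 13 positions in S and 21 in G1. With 5 kb on both sides it turned to 1.08. Trgc3 (chr13:19260885-19263397) held 47 reads in S (2.29 RPM) and 44 in G1 (1.64 RPM), a ratio of 1.40 (0.907 to 2.16). Trgc4 (chr13:19344558-19352343), the longest of the 8, held 107 reads in S (5.21 RPM) and 155 in G1 (5.76 RPM), a ratio of 0.904 (0.700 to 1.16). The gamma genes showed no common direction.

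**Figure D4:**
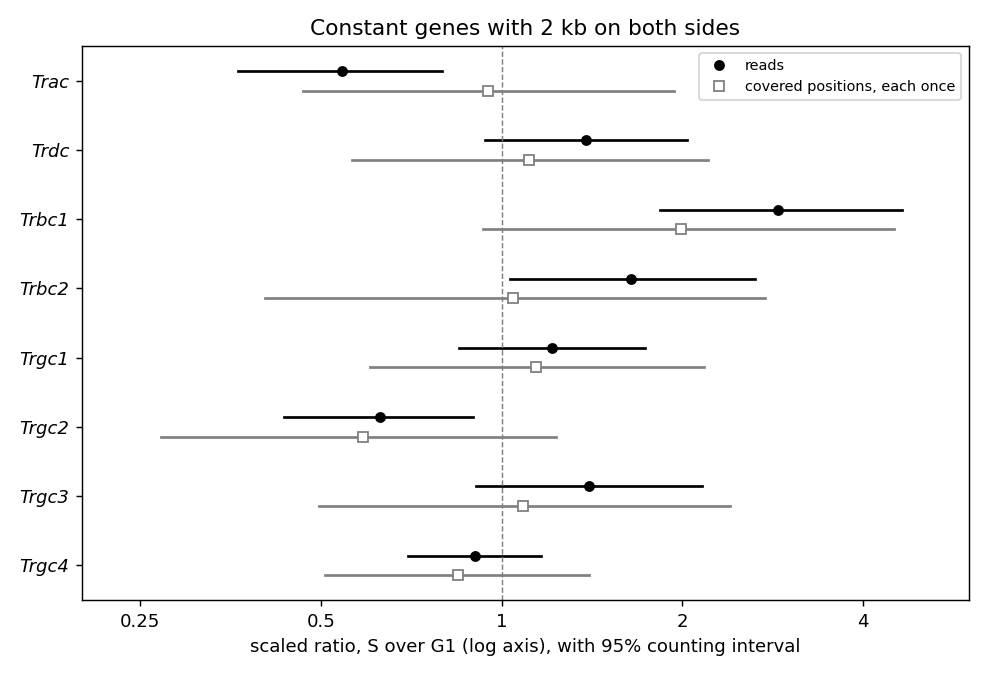
Scaled ratio of S over G1 on a log axis at the 8 constant genes with 2 kb on both sides, from reads (filled circles) and from covered positions counted once (open squares), with 95% counting intervals. Read ratios run from 0.543 at Trac to 2.89 at Trbc1, and all position intervals cross 1.

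In the bodies of the gene segments, reads were few. The 178 V genes, which encode most of the antigen-binding part, held 442 reads in S and 588 in G1 together, a ratio of 0.984 (0.868 to 1.12), and 140 of them held a read in either library. The 80 J genes held 34 reads in S and 47 in G1, and the 4 D genes (Trdd1, Trdd2, Trbd1 and Trbd2) held 0 in both. A count of 0 allows up to 3 reads, which is 0.146 RPM in S and 0.112 RPM in G1. The median log2 ratio (pseudocount 1) was 0.31 over V genes with reads, 0.33 over J, −0.16 over constant and 0.05 over the non-receptor genes of the windows, beside 0.10 over all 45995 genes with reads. These medians turned on the window, since with 2 kb on both sides they were −0.00 for V, 0.09 for J and 0.37 for constant genes. By position they were −0.04 for V, −0.04 for J and −0.03 for constant genes. With 2 kb on both sides, intervals of 25 V genes lay above 1 (14.04%) and of 21 below (11.8%), against the 28.2% and 13.3% of all genes, again not matched for read number.

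Break-end density was also measured at the segment borders. A V gene carries its recombination signal at 1 end and a J gene at the opposite end, and both ends of every segment were counted, so the windows include borders with no signal. Within 25 bp of either end of the 262 V, D and J segments, 59 positions were covered in S and 47 in G1. Position density there was 0.801 times (0.609 to 1.03) that of the rest of the loci in S and 0.643 times (0.472 to 0.856) in G1. The borders held 2.27 positions per kb in S and 1.81 in G1. The V gene bodies, which the windows partly cover, held 2.01 in S and 1.86 in G1, and the J gene bodies 2.40 in S and 2.61 in G1. Values as low were thus also seen in the V gene bodies. The J gene bodies, on 11 positions in S and 12 in G1, lie mostly inside the windows and give no separate comparison. Minus-strand positions with a plus-strand position within 10 bp were also counted. A break with both ends mapped gives this layout, and so can unrelated positions. They made up 48 of 3862 minus-strand positions in S (1.24%, 0.918 to 1.64) and 52 of 3817 in G1 (1.36%, 1.02 to 1.78). On chromosomes 1 to 19 the shares were 2.44% in S and 2.29% in G1. The share that unrelated positions would give was not worked out, so these pairs are not read as breaks with both ends. The part of recombinase cutting in these values was not tested.

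V genes with at least 20 reads over both libraries numbered 3 in Tra/Trd and 2 in Trb, and there were 0 in Trg. Trav6d-3 held 13 reads in S and 13 in G1 (1.31, 0.559 to 3.07). Trav6-3 held 20 reads in S and 42 in G1 (0.623, 0.347 to 1.09), and Trav13n-4 10 in S and 28 in G1 (0.467, 0.203 to 0.992). Trbv4 held 7 reads in S and 13 in G1, and Trbv26 6 in S and 18 in G1, both with intervals that held 1. Only the interval of Trav13n-4 lay off 1 among these 5 genes.

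Genes of other kinds inside the windows spread further. In Trb, the bodies of Prss2 (51 reads in S and 25 in G1, ratio 2.67, 1.62 to 4.50), Try5 (33 reads in S and 18 in G1, 2.40, 1.31 to 4.53) and Try4 (36 reads in S and 22 in G1, 2.14, 1.23 to 3.82) had the highest ratios. All 3 belong to the trypsin family of digestive proteases. Prss58 (26 reads in S and 98 in G1, 0.347, 0.216 to 0.540), Prss3 (19 reads in S and 52 in G1, 0.478, 0.267 to 0.823) and Prss1 (38 reads in S and 75 in G1, 0.663, 0.437 to 0.992) had the lowest, and belong to the same family. With 2 kb on both sides, Try5 stayed above 1 (2.004, 1.45 to 2.79) and Prss58 below it (0.529, 0.386 to 0.716). Try4 turned to 0.953 (0.670 to 1.35) and Prss1 to 1.05 (0.757 to 1.44), and the intervals of Prss2 (1.36, 0.984 to 1.88) and Prss3 (0.788, 0.565 to 1.09) then held 1. Of all 12 trypsin genes counted so, 1 had an interval above 1 and 3 below, and 8 had intervals that held 1. Over all 49591 genes with the same flanks 28.2% lay above and 13.3% below, not matched for read number. In Tra/Trd the range was from Gm30214 (40 reads in S and 33 in G1, 1.59, 0.976 to 2.60) to Gm3922 (3 reads in S and 22 in G1, 0.178, 0.0342 to 0.594), with the olfactory receptor genes Olfr1507 at 1.47 (0.981 to 2.21) and Olfr1508 at 0.567 (0.344 to 0.913). In Trg, Stard3nl held 311 reads in S and 378 in G1 (1.08, 0.924 to 1.26), and Gm31887 309 in S and 459 in G1 (0.881, 0.760 to 1.02).

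Bin by bin, 207 of the bins passed a filter on low bins, set where 10% of all bins with reads have a lower mean level. The other 62 all lay in Tra/Trd, 56 of them in the V blocks with d, n or neither letter. The median log2 ratio was 0.01 over the 207 bins, beside −0.00 over all 238422 bins past the filter. Of the 207, 107 stood above 1 (51.7%, against 49.9% of all bins), and the 5th and 95th percentiles of the ratio were 0.638 and 1.82, against 0.570 and 1.80 over all bins. A bin was called when the ratio was at least 2 or at most 0.5 with both strands going the same way. In the loci 8 bins were called higher (3.86%) and 1 lower (0.483%), where 2.69% and 2.24% of all bins were called. Counted by position, 1 bin was called higher (0.422% of 237) and 0 lower, where 1.75% and 1.23% of all bins were called. Strand bins with at least 20 reads gave 43 higher (8.72%) and 32 lower (6.49%) of 493, where 8.58% and 8.19% of all strand bins were called. The shares of called strand bins lay close to those of the genome.

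**Figure D5:**
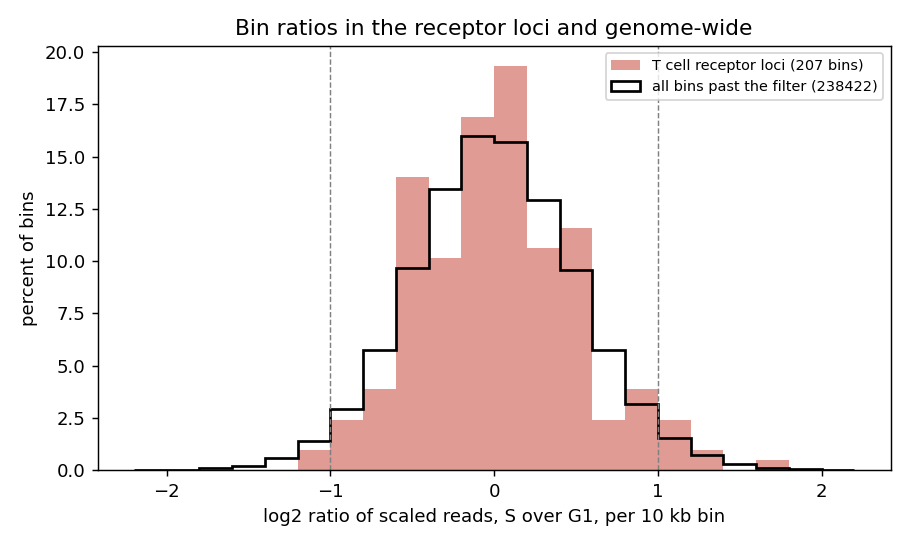
Percent of 10 kb bins by log2 ratio of scaled reads, S over G1, for the 207 receptor-locus bins past the filter (filled) and all 238422 such bins (line), with dashed lines at the call threshold. The receptor bins centre near 0, like the rest of the genome.

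The bin of highest ratio in Trb (chr6:41050001-41060000), which holds Trbv4, had 121 reads in S and 64 in G1, a ratio of 2.47 (1.81 to 3.40). It covered 43 positions in S and 18 in G1 (2.27, 1.28 to 4.18), and was the bin that kept its call by position. The bin of the second Trb D, J and C set (chr6:41540001-41550000) had 96 reads in S and 59 in G1, a ratio of 2.13 (1.52 to 2.998). Its plus strand held 44 reads in S and 9 in G1, and its minus strand 52 in S and 50 in G1. A bin with Try5 (chr6:41310001-41320000) had 123 reads in S and 80 in G1 (2.01, 1.51 to 2.70). The 1 bin called lower holds Trbv10 (chr6:41090001-41100000), with 44 reads in S and 128 in G1, a ratio of 0.450 (0.312 to 0.638). Bins at chr6:40940001-40950000 (70 reads in S and 168 in G1, 0.545) and chr6:41110001-41120000 (63 reads in S and 130 in G1, 0.634) were next lowest, and neither was called.

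In Trg, a bin with no gene in the table (chr13:19220001-19230000), just beyond Trgc1, had 128 reads in S and 55 in G1, a ratio of 3.05 (2.20 to 4.26) and the highest of all 207. It covered 45 positions in S and 23 in G1 (1.86, 1.102 to 3.22). The bins at chr13:19270001-19280000 (76 reads in S and 55 in G1, 1.81) and chr13:19320001-19330000 (98 reads in S and 73 in G1, 1.76) followed, and the lowest was chr13:19280001-19290000 (55 reads in S and 128 in G1, 0.562). The next lowest were chr13:19230001-19240000 (77 reads in S and 165 in G1, 0.611), beside the highest bin, and chr13:19190001-19200000 (90 reads in S and 170 in G1, 0.693), which holds Trgv5 and Trgv6. High and low bins of Trg were thus neighbours in 2 places.

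In Tra/Trd, the highest bin holds Trav13-5 (chr14:53790001-53800000), with 83 reads in S and 43 in G1, a ratio of 2.53 (1.73 to 3.74). The bin with Trav16n (chr14:53350001-53360000) had 75 reads in S and 46 in G1 (2.13, 1.46 to 3.15), and a bin with no gene (chr14:52440001-52450000) 102 in S and 65 in G1 (2.05, 1.49 to 2.85). The position intervals of these 3 bins held 1. The lowest bin holds Trav1 (chr14:52420001-52430000), with 31 reads in S and 87 in G1, a ratio of 0.466 (0.299 to 0.710). Its low value lay on the minus strand (15 in S and 76 in G1), while the plus strand held 16 in S and 11 in G1, so it was not called. The bin with the most S reads, picked after its values were seen (chr14:53570001-53580000, with no gene), held 170 reads in S and 147 in G1, a ratio of 1.51 (1.21 to 1.90), on 69 positions in S and 51 in G1. The bins at chr14:53810001-53820000 (37 reads in S and 92 in G1, 0.526) and chr14:52590001-52600000 (56 reads in S and 132 in G1, 0.555) were low without being called.

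Local peaks were defined as 1 kb bins with 10 or more reads that stand 10 times or more above the median of the surrounding 100 kb. Of 2690 bins of 1 kb, 0 were peaks in S and 2 in G1, where 0.121% of bins were peaks in S and 0.0877% in G1 over the genome. At 5 times the median there were 14 in S (0.520%) and 23 in G1 (0.855%), where the genome had 0.500% in S and 0.507% in G1. Both G1 peaks at 10 times lay in Tra/Trd. One (chr14:52889001-52890000) held 31 reads in G1, 4 plus and 27 minus, at 10.3 times its local median, and the other (chr14:53636001-53637000) held 42 reads, 22 plus and 20 minus, at 10.5 times. The fullest 1 kb bin of S in Tra/Trd (chr14:54177001-54178000), which touches the segment Traj40, held 34 reads, 21 plus and 13 minus, at 6.80 times its local median. In Trb the fullest 1 kb bin of S held 30 reads, all plus, on 5 positions (chr6:41133001-41134000), at 5 times.

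Most reads shared their position with others, and stacks stayed small. The fullest position of S held 11 reads in Tra/Trd, 12 in Trb and 9 in Trg, and that of G1 held 21 in Tra/Trd, 19 in Trb and 11 in Trg. The 21 reads of G1 lay at chromosome 14 position 52648640 on the minus strand, where S had 0. The next fullest were 2 plus-strand positions with 18 reads each in G1, 54045918 with 2 reads in S and 53906717 with 0. In Trb, 41430075 held 19 reads in G1, and 41142847 and 41242224 held 15 each, all with 0 in S. In Trg, 19179429 and 19231597 held 11 reads each in G1 and 0 in S, and 19233549 held 2 in S and 9 in G1. These fullest positions, ranked by unscaled reads of both libraries together, were nearly all covered in G1 alone. G1 also had more reads, and more reads per position, on chromosomes 1 to 19, so the ranking favours it. Positions covered in both libraries numbered 90, or 1.18% of the 7622 positions of S (0.951 to 1.45) and 1.19% of the 7548 of G1, against 1.83% in S and 1.93% in G1 on chromosomes 1 to 19. Across the 207 bins, read numbers of S and G1 had a Spearman correlation of 0.293, beside 0.289 over all bins, a description of bins that share mappability and base composition.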

How the data were processed

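Each library was deposited as a plus-strand and a minus-strand bedGraph track, per the file headers, with raw counts of read ends at each position. The submitters' processing notes name mm10 as the build and Bowtie 1.1.2, SAMtools 1.11 and bedtools as tools. How duplicates and multiply matching reads were treated is not given in the sources used here, and without molecular identifiers intervals and floors cover counting error only.

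Sums, intervals and plots were made here with scipy 1.17.1, pandas 2.3.3, numpy 2.4.6, matplotlib 3.10.9 and Python 3.11.15. S held 21997695 reads in all and G1 28933109, and 3 reads, the most that a count of 0 allows, stand for 0.146 RPM in S and 0.112 in G1. Gene positions are those of RefSeq (GRCm38.p6), without strand. Rules of size stood in for tests, which single libraries do not allow, and the calculation of bin calls was checked on simulated counts with known changes. The text names all constant genes, D genes and J spans, the 3 highest and 3 lowest bins per locus, the 3 fullest positions per locus, up to 3 V genes and 3 other genes at each end per locus with at least 20 reads, the trypsin genes, Dad1, and local peaks. Loci of 9 T cell markers (Cd3e to Lck), counted with 2 kb on both sides, ran from 0.638 to 1.93, and 1 other list is not reported here. The members, lists and spans were chosen with earlier results of these data known, and the V blocks by copy letter after the gene table was seen. Alternatives covered scaling, bin size, filters, thresholds, strands, flanks, a cap on stacked reads and positions counted once.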

Additional observations from a re-analysis of the deposited data

How the results depend on the processing

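No paired analysis was possible because each group held 1 library. Locus ratios scaled to the median gene, which shifts all log2 ratios by −0.10, were 0.950 for Tra/Trd, 0.930 for Trb and 1.04 for Trg. With positions counted once and scaled to covered positions, the locus ratios were 0.946 for Tra/Trd and 1.02 for Trg. In reads, Trb stood at 1.09 on the plus and 0.923 on the minus strand. Trbc2 reversed on the minus strand alone (0.582) and without flanks (0.482), and Trgc2 with 5 kb on both sides (1.08). Within wide counting intervals, Trgc1 crossed 1 on the plus strand (0.873), and Trgc4 on the minus strand (1.05) and with 5 kb (1.13). Bins called higher and lower numbered 37 and 23 at 5 kb, 0 and 0 at 20 kb, 0 and 0 at 50 kb, 20 and 15 at a ratio of 1.5 or its inverse (all bins 10.9% and 10.3%), 1 and 0 at 3 or its inverse (0.209% and 0.142%), 3 and 2 scaled to the median gene (1.75% and 3.50%), and 1 and 0 with positions counted once. Without the filter 11 bins were higher and 2 lower (all bins 2.89% and 2.49%). With a filter at the 25th percentile 5 were higher and 1 lower (all bins 2.23% and 2.06%). Strand bins called numbered 15 and 20 of 213 with at least 50 reads (all strand bins 7.01% and 11.6%) and 5 and 7 of 130 with positions counted once (6.49% and 8.49%). Over all bins 7.41% were higher and 6.92% lower at 5 kb, 0.506% and 0.322% at 20 kb, and 0.00418% and 0% at 50 kb. The plus share of Tra/Trd in G1 was 51.3% by position. At 5 times the local median there were 14 peaks in S and 23 in G1, and at 20 times 0 in G1. Tra/Trd over its flanks was 0.926 with 1000 kb, 0.920 with 200 kb and 0.815 by position, and Trg over its flanks 1.02 by position. Without its bin of highest ratio, an alternative added after the data were seen whose choice fixes the direction, Trg was 1.07. The causes of these moves were not tested. Most V, D and J genes held under 20 reads, which limits their values.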
